A study of Mus musculus with 9 samples.

Results

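The genes described here serve antigen presentation by major histocompatibility complex (MHC) class II molecules in cultured mouse lung cells with and without the transcription factor Nrf2. The members were fixed by name: Cd74, H2-Aa, H2-Ab1, H2-Eb1, H2-DMa, H2-DMb1, Ciita, Ctss and Cd86. A probe set, a group of short oligonucleotides on the array that reports 1 transcript, counted as theirs where its annotation held that symbol and no other. Of the 9 genes, 8 were measured in this way, by 17 probe sets, of 18193 genes and 45037 probe sets in all. H2-DMb1 appeared only in 2 probe sets annotated to H2-DMb2 as well, so no value is given for it.

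Each of the 3 groups had 3 arrays of cells labelled as lung type II cells (surfactant-producing epithelial cells of the alveolus) from ICR10 mice, given as female and 2 months old. The groups were Nrf2-/- cells supplemented with GSH, the usual abbreviation of glutathione, Nrf2-/- cells without it, and Nrf2+/+ wild-type cells. The labels give no dose or timing for the GSH, and their treatment protocol reads as none for every array. After 45 min of Dispase II digestion, 1 h on IgG plates was used against macrophages and 2 h on plain dishes against fibroblasts, and what had not adhered was cultured for 5 days with keratinocyte growth factor. The 2 kinds of knockout array carry the numbers 2, 3 and 4 and the wild-type arrays 3, 4 and 5, and a second number in the titles divides all arrays into set 2 (2 arrays of each group) and set 3 (1 of each). Nothing in the labels says which arrays came from separate animals, so the p-values below measure the spread between arrays, which may be technical.

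Class II molecules are heterodimers of an alpha and a beta chain that carry peptides from endosomes to the cell surface for CD4 T cells. The invariant chain Cd74 holds the new dimer and leads it to the endosome, cathepsin S cuts the chain down, and H2-DM exchanges the last fragment for a peptide. Transcription of the class II chain genes in most presenting cells depends on the coactivator Ciita, which is recruited to a promoter module with an X and a Y box. Alveolar macrophages, dendritic cells and B cells present in this way, and alveolar type II cells are also known to hold class II molecules.

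The X and Y boxes can be read in the promoters of some of the member genes, and are shown because they are what the class II chains have in common in sequence. Of the 9 members, 5 had a window from 250 bases before to 50 bases after a transcription start in the RefSeq table of build GRCm38.p6, 6 windows in all. The letters CTNGNAAC for the X box and TGATTGG for the Y box, chosen after these windows had been read, were searched on both strands, and the 2 motifs did not overlap in any pair described here. The 3 windows that held an X followed by a Y on the same strand within 60 bases were those of H2-Aa (chr17:34287774-34288073, minus strand), H2-Eb1 (chr17:34305617-34305916, plus strand) and H2-DMb1 (chr17:34152941-34153240, plus strand). They are written in the direction of transcription, with the X and then the Y letters in capitals.
H2-Aa: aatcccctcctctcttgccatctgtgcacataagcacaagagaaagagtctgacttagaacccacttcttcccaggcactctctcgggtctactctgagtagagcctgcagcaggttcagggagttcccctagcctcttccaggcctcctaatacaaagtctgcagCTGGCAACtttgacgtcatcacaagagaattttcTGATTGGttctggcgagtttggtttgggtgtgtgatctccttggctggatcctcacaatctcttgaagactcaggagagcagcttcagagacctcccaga
H2-Eb1: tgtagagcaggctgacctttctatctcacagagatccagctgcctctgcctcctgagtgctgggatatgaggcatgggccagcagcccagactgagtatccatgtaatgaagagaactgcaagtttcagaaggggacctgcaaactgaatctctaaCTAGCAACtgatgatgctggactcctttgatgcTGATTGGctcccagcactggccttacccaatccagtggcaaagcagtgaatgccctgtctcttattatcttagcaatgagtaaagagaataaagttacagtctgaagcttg
H2-DMb1: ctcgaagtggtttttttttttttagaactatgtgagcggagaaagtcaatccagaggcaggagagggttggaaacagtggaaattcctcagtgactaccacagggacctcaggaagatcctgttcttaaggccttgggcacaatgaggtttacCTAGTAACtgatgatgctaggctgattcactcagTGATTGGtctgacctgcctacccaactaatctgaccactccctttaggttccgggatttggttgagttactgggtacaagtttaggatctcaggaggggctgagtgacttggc
The X letters began 84 bases before the start in H2-Aa, 94 in H2-Eb1 and 97 in H2-DMb1, and 26, 25 and 26 bases lay between X and Y. Over all 32851 windows of the table, 13.2% held the X letters, 7.82% the Y letters and 0.119% (39 windows) the ordered pair. The Ctss window and both H2-DMa windows did not hold these letters. Because the letters were taken from the windows of these genes, the share describes them and is no test, and a match is not shown to be a site in use.

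A few facts of the whole series bear on what follows. Nfe2l2, which encodes Nrf2, had signals of 41.6 ± 7.20 in knockout cells with GSH and 59.9 ± 27.1 in knockout cells, against 3980.4 ± 167 in wild-type cells (SD, n = 3 each). Although all animals are labelled female, the Y-linked Eif2s3y had 7.43 ± 7.68 and 9.27 ± 13.1 in the 2 knockout groups, against 801 ± 121 in wild type. Xist, expressed from the inactive X chromosome, had 3510 ± 1112 and 3203 ± 1248 in the knockout groups, against 157 ± 28.2 in wild type. Genotype and these sex-linked signals run together, so every contrast with wild type below cannot tell the 2 apart. Signals are the authors' array intensities in arbitrary units. An array's control level is the 95th percentile of its 27 probe sets for bacterial transcripts, 43.4 to 82.9 over the arrays.

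The class II genes were highest in knockout cells with GSH, and the chains parted in knockout cells without it: Cd74, H2-Aa, H2-DMa and Cd86 were above wild type, while H2-Ab1 and H2-Eb1 were not. Differences were tested with limma over the 22519 brighter probe sets, with the set as a term, and a probe set was called at a Benjamini-Hochberg adjusted p under 0.05. That filter kept 11 of the 17 member probe sets, from 7 genes. In knockout cells with GSH against knockout cells, 8 of the 11 were called higher (5 of 7 genes) and 0 lower, where 18.4% of all probe sets were called higher and 17.0% lower. In knockout cells with GSH against wild type, all 11 were called higher, against a background of 22.5% higher and 22.3% lower. In knockout cells against wild type, 6 of 11 were called higher (4 of 7 genes) and 0 lower, against 14.6% higher and 14.6% lower.

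The median log2 change of the 11 member probe sets was 1.04, 1.12 and 0.54 in those 3 comparisons, and 0.04, 0.02 and 0.0 over all probe sets tested. The comparisons share arrays (each group stands in 2 of them), so their counts are not independent of each other. For 3 of the 11 kept probe sets, both of H2-Aa and 1 of H2-Ab1, at least 1 group lay below the intensity at which the filter acts, a geometric mean of 116, so these passed through their brighter groups. Over all 17 member probe sets with no filter, the calls were again 8, 11 and 6 higher and 0 lower. The shares called higher over all 45037 probe sets were then 8.79% for GSH against knockout, 11.6% for GSH against wild type and 6.79% for knockout against wild type.

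**Figure D1:**
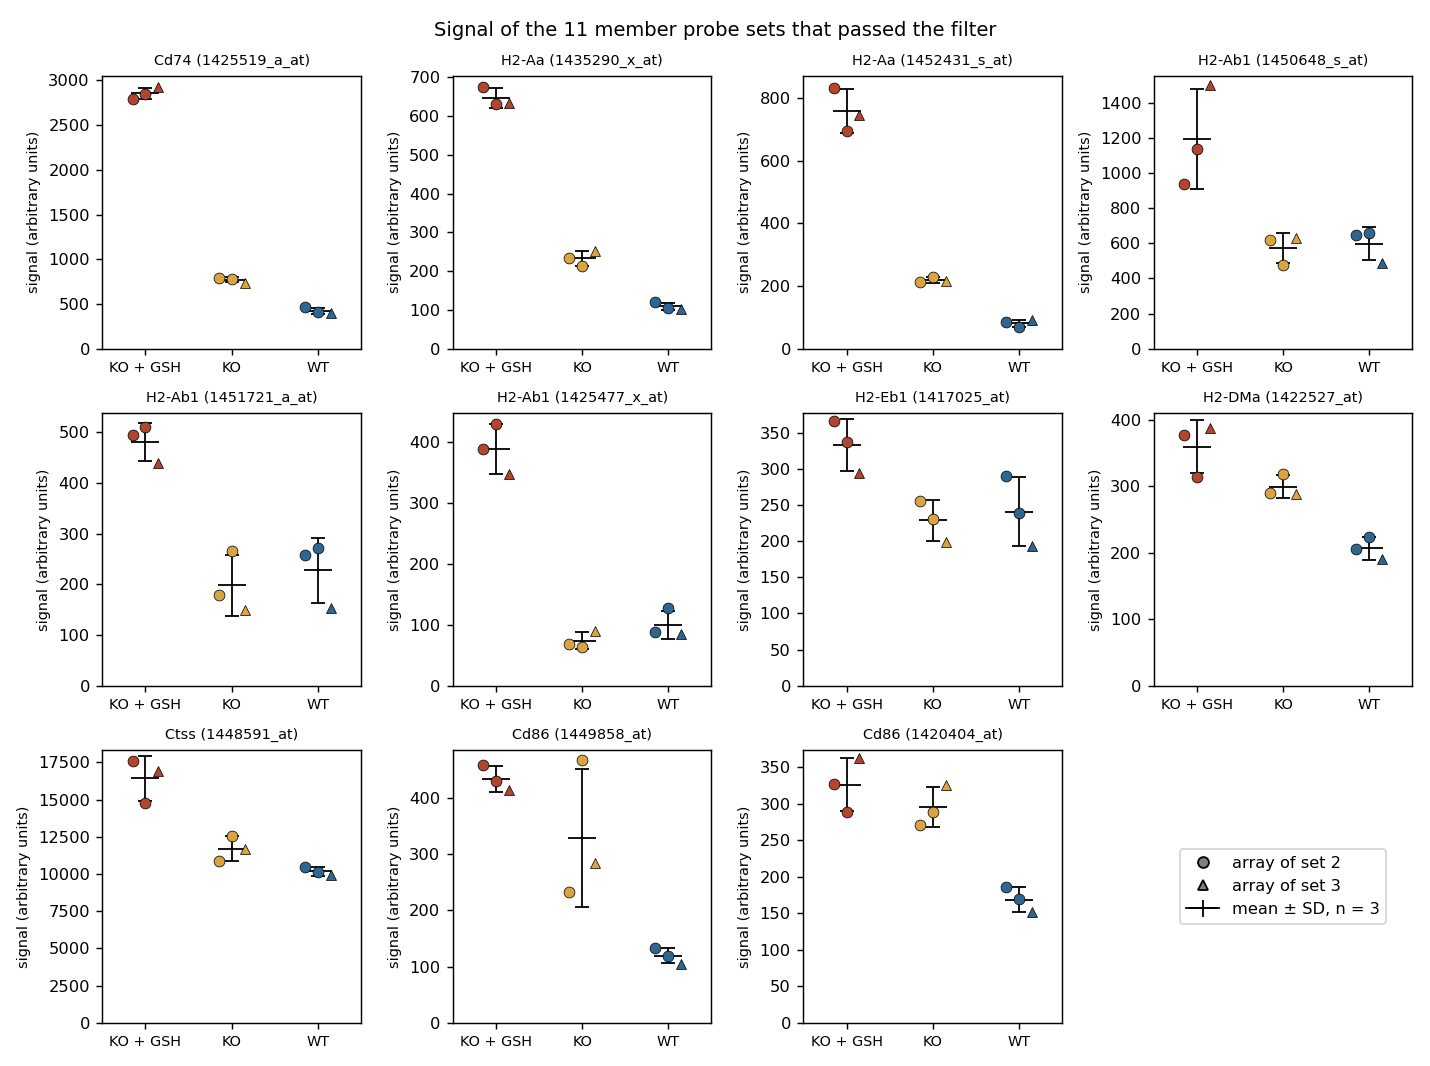
Signal (linear, arbitrary units, each panel from 0) of the 11 member probe sets kept by the filter on the 9 arrays, circles for set 2 and triangles for set 3, with the mean ± SD of 3 arrays. Cd74 and both H2-Aa probe sets step down from knockout with GSH through knockout to wild type, whereas the 3 H2-Ab1 probe sets and H2-Eb1 overlap between knockout and wild type.

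Cd74, the invariant chain, gave signals of 2797.8, 2847.7 and 2924.8 in knockout cells with GSH, 785.5, 782.9 and 738.9 in knockout cells and 460.4, 404.9 and 396.4 in wild-type cells. The 3 groups did not overlap, and the arrays within a group lay close together. The means were 2857 ± 64.0 with GSH, 769 ± 26.2 in knockout and 421 ± 34.8 in wild type (SD, n = 3 each). The signal was 3.72-fold higher with GSH than in knockout alone (log2 change 1.89 ± 0.08, SE, limma adjusted p = 1.1e-08), and 6.81-fold higher than in wild type (2.77 ± 0.08, adjusted p = 1.0e-09). Knockout alone was 1.83-fold above wild type (0.87 ± 0.08, adjusted p = 1.2e-05). The changes were of similar size in the 2 sets of arrays, at 1.85 in set 2 and 1.98 in set 3 for GSH against knockout, and at 0.86 and 0.90 for knockout against wild type.

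H2-Aa, the alpha chain of the I-A molecule, had the same order of groups on both probe sets that passed the filter. On 1452431_s_at the signals were 832.4, 695.6 and 745.5 in knockout cells with GSH, 212.1, 229.0 and 216.7 in knockout cells and 83.4, 68.0 and 90.5 in wild-type cells. The groups were apart by more than any spread within them, and every array lay above its control level. This probe set was 3.45-fold higher with GSH than in knockout (log2 change 1.79 ± 0.16, adjusted p = 4.3e-06), 9.44-fold higher than in wild type (3.24 ± 0.16, adjusted p = 2.4e-08), and 2.74-fold higher in knockout than in wild type (1.45 ± 0.16, adjusted p = 3.9e-05). On 1435290_x_at the signals were 674.9, 631.3 and 632.5 with GSH, 233.4, 212.6 and 251.6 in knockout and 119.9, 105.4 and 103.0 in wild type. Its log2 changes were 1.48 for GSH against knockout, 2.56 for GSH against wild type and 1.09 for knockout against wild type (adjusted p = 8.6e-06, 6.4e-08 and 1.6e-04). Of the 2 dimmer H2-Aa probe sets, 1438858_x_at had means of 193 ± 62.2, 102 ± 40.8 and 76.6 ± 46.6 in the same order of groups, and 1443783_x_at stayed below the control level on every array. Probes of sets ending in _x_at or _s_at can match more than 1 transcript, and whether probes match the alleles of this stock was not tested.

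H2-Ab1, the beta chain that pairs with H2-Aa, was higher with GSH and did not pass the test between knockout and wild type. Its brightest probe set, 1450648_s_at, read 940.4, 1138.6 and 1504.9 in knockout cells with GSH, 621.2, 475.4 and 628.8 in knockout cells and 647.6, 658.8 and 490.7 in wild-type cells. The GSH arrays lay above all others, and the arrays of knockout and wild type overlapped. GSH against knockout gave a log2 change of 1.04 ± 0.18 (2.05-fold, adjusted p = 7.6e-04) and GSH against wild type 0.98 ± 0.18 (adjusted p = 8.7e-04). Knockout against wild type gave -0.06 with a 95% interval of -0.45 to 0.33 (adjusted p = 0.85).

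The other 2 H2-Ab1 probe sets had the same pattern. On 1451721_a_at the signals were 495.2, 509.5 and 438.3 with GSH, 178.2, 265.5 and 149.9 in knockout and 257.4, 271.3 and 153.7 in wild type. The log2 change was 1.32 for GSH against knockout (adjusted p = 1.4e-04) and -0.20, with an interval of -0.59 to 0.19, for knockout against wild type (adjusted p = 0.45). On 1425477_x_at the signals were 388.9, 428.4 and 346.9 with GSH, 68.7, 63.6 and 89.5 in knockout and 88.6, 126.7 and 84.0 in wild type. Here the knockout arrays were close to the control level, which 2 of the 3 exceeded, and the log2 change of 2.40 with GSH (adjusted p = 8.8e-06) was larger than on the other 2 probe sets. Knockout against wild type gave -0.42 on that probe set (interval -0.93 to 0.08, adjusted p = 0.20).

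H2-Eb1, the beta chain of the I-E molecule, was called higher with GSH and not between knockout and wild type. Its signals were 366.1, 336.9 and 294.7 in knockout cells with GSH, 255.7, 231.2 and 199.0 in knockout cells and 289.4, 239.1 and 193.5 in wild-type cells. All GSH arrays lay above the others, the lowest of them only just, and knockout and wild type overlapped. The log2 change was 0.54 ± 0.14 for GSH against knockout (adjusted p = 0.011) and 0.48 ± 0.14 for GSH against wild type (adjusted p = 0.016). Without the set term both calls were lost (adjusted p = 0.078 and 0.095), and the call against wild type was also lost without wild-type array 4 (0.43, adjusted p = 0.073), wild-type array 5 (0.42, 0.072) or GSH array 4 (0.44, 0.064). Knockout against wild type gave -0.06, with an interval of -0.37 to 0.25 (adjusted p = 0.79).

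The unequal change of the chains was compared within arrays, as the log2 signal of 1 gene less that of another on the same array, set to 0 at the wild-type mean. For each gene the probe set with the highest mean was taken. H2-Aa less H2-Ab1 was 1.19, 1.59 and 1.96 on the arrays of knockout with GSH and 1.03, 1.12 and 1.28 on those of knockout, against -0.20 to 0.19 in wild type. The knockout groups lay above wild type on every array, by a mean of 1.58 with GSH and 1.14 without (exact permutation test, two-sided, p = 0.1 for each, the smallest that 3 arrays against 3 can give). Between the 2 knockout groups the difference was 0.44 (exact p = 0.2), with overlapping arrays. Within the same-numbered arrays 2, 3 and 4 it was 0.93, 0.31 and 0.07, above 0 in all 3 pairs (exact sign-flip test, p = 0.25, the smallest that 3 pairs can give). H2-Aa less H2-Eb1 averaged 2.08 with GSH and 1.15 in knockout, relative to wild type, and Cd74 less H2-Ab1 averaged 1.79 and 0.93 (exact p = 0.1 for each difference, between the knockout groups too). The differences from H2-Ab1 rest on 1450648_s_at, which changed by 1.04 for GSH against knockout. On 1425477_x_at H2-Ab1 changed by 2.40, more than Cd74 (1.89) and H2-Aa (1.48 and 1.79). Between the knockout groups, the order of H2-Ab1 and these genes thus depends on the probe set taken.

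**Figure D2:**
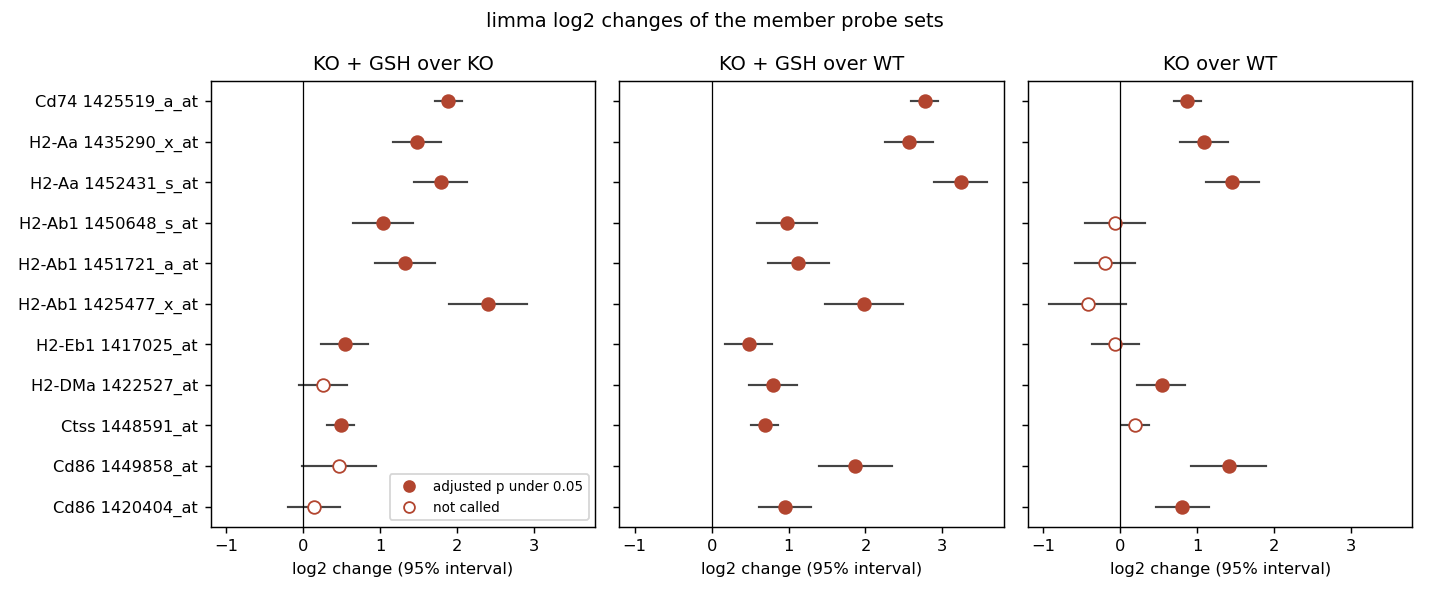
limma log2 change with its 95% interval (horizontal axis) for each kept member probe set (rows) in knockout with GSH over knockout, knockout with GSH over wild type, and knockout over wild type. Filled points passed an adjusted p under 0.05, and in the right panel the intervals of H2-Ab1 and H2-Eb1 span 0 while those of Cd74, H2-Aa, H2-DMa and Cd86 lie above it.

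H2-DMa encodes the alpha chain of the editor that loads peptides. On 1422527_at it read 377.4, 314.3 and 388.4 in knockout cells with GSH, 290.2, 319.1 and 289.1 in knockout cells and 205.6, 223.8 and 190.4 in wild-type cells. Both knockout groups lay wholly above wild type and overlapped each other. It was called higher with GSH than in wild type (log2 change 0.80 ± 0.14, adjusted p = 7.9e-04) and in knockout than in wild type (0.54 ± 0.14, adjusted p = 0.015), and GSH against knockout gave 0.26 (interval -0.05 to 0.57, adjusted p = 0.18). The call between knockout and wild type was lost without wild-type array 3 (0.53, adjusted p = 0.051) or wild-type array 5 (0.46, adjusted p = 0.073). The dimmer probe set 1459872_x_at, at 77.7 ± 62.4, 61.4 ± 9.66 and 38.6 ± 16.6 in the same order of groups, was left out by the filter.

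Ciita, the coactivator that class II transcription depends on, had low signals in all groups, and its 3 probe sets were left out by the filter. The brightest, 1421210_at, read 98.8, 86.3 and 131.2 in knockout cells with GSH, 75.5, 56.4 and 38.7 in knockout cells and 82.5, 58.3 and 69.8 in wild-type cells. It was above the control level on 3 GSH arrays, 1 knockout array and 3 wild-type arrays, and the GSH arrays lay above the others. The control levels of GSH arrays 2, 3 and 4 were 82.9, 60.9 and 43.4. In the fit with no filter, GSH against knockout gave a log2 change of 0.92 (interval 0.13 to 1.71, adjusted p = 0.11), GSH against wild type 0.58 (adjusted p = 0.30) and knockout against wild type -0.34 (adjusted p = 0.63). The other 2 Ciita probe sets were above the control level on 0 GSH arrays and on at most 1 array of each other group. No difference in Ciita was called, although on 1421210_at the GSH arrays and the interval for GSH against knockout lay on the higher side.

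Ctss, the cathepsin S that trims the invariant chain in many presenting cells, had signals of 17604.6, 14744.9 and 16946.1 in knockout cells with GSH, 10857.8, 12540.5 and 11713.9 in knockout cells and 10475.5, 10150.5 and 9904.6 in wild-type cells. The 3 groups did not overlap, although those of knockout and wild type nearly met. With GSH it was 1.40-fold higher than in knockout (log2 change 0.49 ± 0.08, adjusted p = 5.7e-04) and 1.61-fold higher than in wild type (0.69 ± 0.08, adjusted p = 3.0e-05). Knockout against wild type gave 0.20 (interval 0.02 to 0.38, adjusted p = 0.085), which passed the threshold without knockout array 2 (0.26, adjusted p = 0.049) or without GSH array 3 (0.20, adjusted p = 0.049).

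Cd86, the co-stimulatory ligand that gives T cells their additional signal through CD28, separated both knockout groups from wild type. On 1449858_at the signals were 458.3, 428.6 and 413.1 in knockout cells with GSH, 233.1, 466.3 and 283.6 in knockout cells and 132.1, 119.2 and 105.3 in wild-type cells. Knockout array 3 was as high as the GSH arrays, and the other 2 knockout arrays lay between them and wild type. The log2 change was 1.87 ± 0.22 for GSH against wild type (adjusted p = 3.1e-05) and 1.41 ± 0.22 for knockout against wild type (adjusted p = 6.0e-04). GSH against knockout gave 0.47 (interval -0.02 to 0.95, adjusted p = 0.12), and 0.74 with a call without knockout array 3 (adjusted p = 0.0087).

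The second Cd86 probe set, 1420404_at, read 327.0, 289.1 and 362.1 with GSH, 270.7, 289.1 and 324.9 in knockout and 185.4, 168.8 and 151.1 in wild type. It gave 0.95 for GSH against wild type, 0.81 for knockout against wild type (adjusted p = 3.8e-04 and 0.0023) and 0.14 for GSH against knockout (interval -0.19 to 0.48, adjusted p = 0.51). Leaving out knockout array 3 did not bring this probe set past the threshold between the knockout groups.

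The summed markers of macrophages and of leukocytes in general were also highest with GSH, although the isolation included a step against macrophages. The summed signal of 19 macrophage markers was 102462 to 112226 in knockout cells with GSH, 77123 to 88143 in knockout cells and 42383 to 43885 in wild-type cells. Of the 18 that passed the filter, 10 were called higher and 2 lower for GSH against knockout (9 and 0 with the replicate block, and 1 lower without knockout array 3 or without any 1 GSH array), 17 and 0 for GSH against wild type, and 15 and 2 for knockout against wild type. Adgre1, the macrophage surface protein F4/80, averaged 13736 ± 181 with GSH, 10155 ± 899 in knockout and 4276 ± 606 in wild type. Siglecf and Itgax, the 2 called lower in knockout than in wild type, had another order of groups. Siglecf averaged 517 ± 129, 133 ± 11.9 and 471 ± 102, and Itgax 3387 ± 172, 914 ± 102 and 2071 ± 159. Marco and C1qc were the 2 called lower with GSH than in knockout (-0.21 and -0.38, adjusted p = 0.029 and 0.0031). All 8 general leukocyte markers were called higher in each of the 3 comparisons, with 6 of them called for GSH against knockout under the replicate block and 7 or 8 on leaving out 1 array. Their sums were 74322 to 88953, 52338 to 58849 and 27266 to 27759 in the same order of groups. In cultures such as these, more cells of a type and more RNA per cell cannot be told apart.

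Other marker lists did not follow one pattern. Of the 9 type II markers that passed, 5 were called higher and 0 lower for GSH against knockout, and 2 higher and 1 lower for knockout against wild type. Sftpc, the surfactant protein that defines the type II cell, was left out by the filter, at 108 ± 30.3 with GSH, 89.1 ± 48.7 in knockout and 37.3 ± 10.3 in wild type, where it was above the control level on 0 of 3 arrays. The type II sum without Lyz2, which macrophages also express and which made up most of it, was 8417 to 9854, 5618 to 6448 and 5454 to 6628. Fibroblast markers, summed over 10 genes, were 16057 to 19622 with GSH, 72179 to 97592 in knockout and 56146 to 58893 in wild type, with all 10 called lower under GSH in both comparisons.

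Markers of other presenting cells were called in both directions. Of 13 dendritic cell markers measured, 4 passed the filter, of which 1 was called higher and 2 lower for GSH against knockout, 1 and 2 for GSH against wild type (1 and 1 without any 1 wild-type array or without GSH array 3 or 4), and 1 and 0 for knockout against wild type (0 higher without knockout array 2 or 4 or wild-type array 4 or 5). Fscn1 and Zbtb46 were the 2 lower ones for GSH against knockout (-1.13 and -0.74, adjusted p = 3.1e-07 and 0.011). The higher one, Ccl17, gave 0.58 there (adjusted p = 0.032) and was not called with the replicate block, which left 0 higher and 2 lower, nor without knockout array 3 or 4 or GSH array 3 or 4. The 13 summed to 6129 to 6591 with GSH, 10993 to 12696 in knockout and 12515 to 12972 in wild type. Fscn1, which fibroblasts can also express, made up most of this, and without it the sums ran the other way, at 1372 to 1562, 939 to 1373 and 749.8 to 857. Ccl22, a chemokine of activated dendritic cells and macrophages, read 323.5, 368.3 and 448.4 with GSH and 247.1, 274.3 and 257.6 in knockout, and was below the control level on all wild-type arrays. Ccr7, the homing receptor of mature dendritic cells, was above the control level on the 3 GSH arrays (98.3 to 126.0) and on 0 arrays of the other groups. The 9 B cell markers measured summed to 3354 to 4417 with GSH, 2402 to 2634 in knockout and 1806 to 2055 in wild type. Of these Cd22, a lectin of B cells, averaged 2469 ± 372, 1169.9 ± 87.8 and 738 ± 28.5 and was called higher in all 3 comparisons. The other 8 summed to 1112 to 1519, 1297 to 1417 and 1097 to 1289, ranges that overlap. No marker of any list was at 0, and the part of these cells in the class II signals was not tested beyond the values that follow.

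Within each array, Cd74 less the summed macrophage markers (log2, wild-type mean at 0) was 1.36, 1.42 and 1.56 on the arrays of knockout with GSH, -0.13, -0.02 and 0.05 on those of knockout and -0.09, -0.07 and 0.16 in wild type. Cd74 relative to the macrophage sum was thus higher on every GSH array, by a mean of 1.48 against knockout and 1.45 against wild type (exact permutation p = 0.1 each). Between knockout and wild type the difference was -0.03 (exact p = 0.8), with overlapping arrays. For H2-Aa the same quantity was 1.25 with GSH and 0.18 in knockout, relative to wild type, a difference of 1.06 between the knockout groups (exact p = 0.1), and knockout overlapped wild type (exact p = 0.2). The mean of Cd74, H2-Aa, H2-Ab1 and H2-Eb1 less the macrophage sum was 0.38 with GSH and -0.44 in knockout, relative to wild type (exact p = 0.1 each), 0.82 apart. Less the general leukocyte sum, it was 0.12 with GSH (exact p = 0.5) and -0.53 in knockout (exact p = 0.1). Ctss less the macrophage sum was -0.63 with GSH and -0.71 in knockout (exact p = 0.1 each against wild type), and the knockout groups overlapped (difference 0.07, exact p = 0.5). The sum adds linear signals, so the brightest markers, Cd14, Csf1r and Adgre1, weigh most in it. For GSH against knockout the median log2 change of the 18 macrophage markers that passed the filter was 0.31. Itgax, Siglecf and Trem2 among them changed by 1.89, 1.93 and 1.55, beside 1.89 for Cd74. The excess over macrophage markers thus depends on the markers taken.

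**Figure D3:**
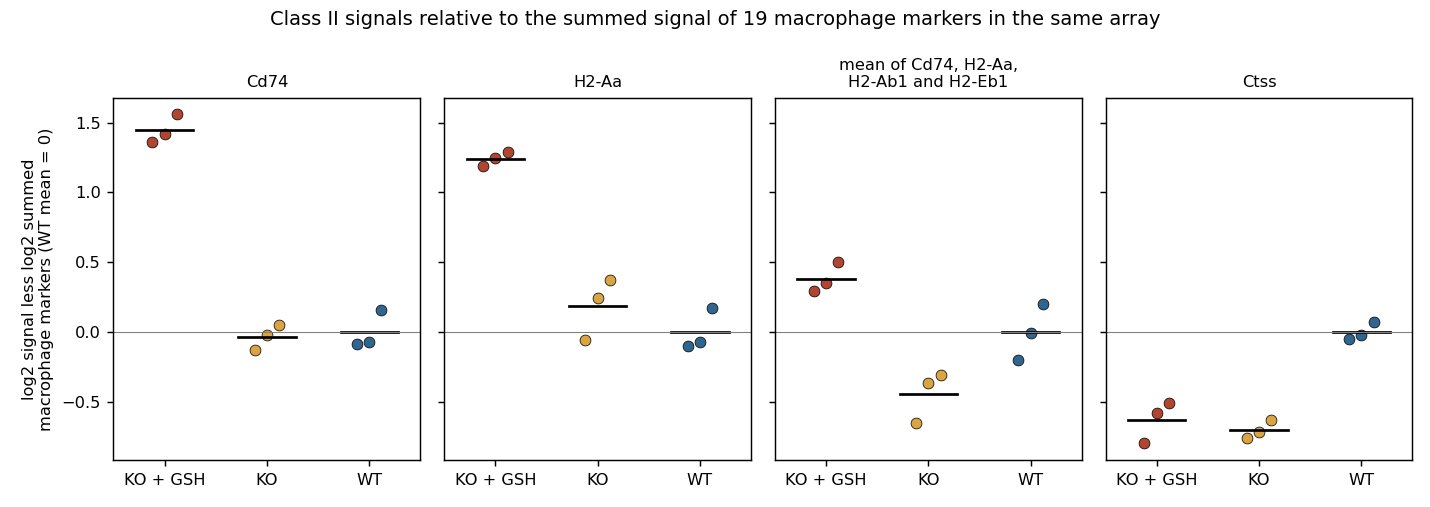
Log2 signal of Cd74, H2-Aa, the mean of 4 class II genes, and Ctss, less the log2 of the summed signal of 19 macrophage markers on the same array, with the wild-type mean at 0 (points are arrays, bars are means of 3). Cd74 and H2-Aa stand above 1 in knockout with GSH and near 0 in knockout, and Ctss stands below 0 in both knockout groups.

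The other genes of the pathway were counted by list, with 1 probe set a gene. Of all probe sets, 18.4% were called higher and 17.0% lower for GSH against knockout. The shares were 22.5% and 22.3% for GSH against wild type, and 14.6% and 14.6% for knockout against wild type. They stand beside the marker counts above and the list counts that follow. Of 10 endosomal proteases and related genes, 4 were called higher and 0 lower for GSH against knockout, 10 and 0 for GSH against wild type, and 9 and 1 for knockout against wild type. Ctsh, an aminopeptidase of lysosomes, averaged 7101 ± 135 with GSH, 3559 ± 156 in knockout and 2714 ± 62.4 in wild type, a log2 change of 1.00 for GSH against knockout (adjusted p = 1.3e-07) and 0.39 for knockout against wild type (adjusted p = 3.9e-04). Cst3 (cystatin C, a cathepsin inhibitor), Ctsc, Lgmn (asparagine endopeptidase) and Ctsl were called higher in knockout than in wild type, by 0.83, 0.75, 0.59 and 0.48, and gave 0.15, 0.12, -0.04 and 0.13 for GSH against knockout, not called. Ctsz was called in both, at 0.54 for knockout against wild type and 0.30 for GSH against knockout (adjusted p = 2.4e-04 and 0.0075). The second was lost with no set term (adjusted p = 0.14) and in set 2 alone (0.27, adjusted p = 0.085).

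The remaining class II chains and editors had low signals. Of 5 measured, H2-DMb2 and H2-Eb2 passed the filter, and neither was called in any comparison. H2-Eb2 was called in knockout against wild type when wild-type array 3 was left out (0.96, adjusted p = 0.036), and H2-DMb2 in GSH against wild type with no intensity trend (0.39, adjusted p = 0.039). H2-DMb2, a beta chain of the peptide editor, averaged 180.5 ± 17.2 with GSH, 143 ± 16.0 in knockout and 138 ± 14.2 in wild type. H2-Oa, the alpha chain of the molecule that restrains H2-DM, was left out by the filter, and read 260.2, 208.1 and 182.1 with GSH, 29.1, 92.2 and 86.0 in knockout and 128.6, 93.6 and 26.3 in wild type. In the limma fit with no filter, H2-Oa gave 1.81 for GSH against knockout (interval 0.57 to 3.04, adjusted p = 0.049). GSH against wild type gave 1.65 (adjusted p = 0.057). H2-Ea and H2-Ob were also left out, with means of 48.7, 53.9 and 34.7 and of 22.2, 29.4 and 25.8 in the same order of groups.

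Few of the factors that bind class II promoters were called. Of 8 genes for RFX, NF-Y and CREB proteins, 1 was called higher and 1 lower for GSH against knockout, 2 and 0 for GSH against wild type, and 1 and 0 for knockout against wild type, beside the shares given above for all probe sets (18.4% and 17.0%, 22.5% and 22.3%, 14.6% and 14.6%). Nfya, a subunit of the factor that binds the Y box, averaged 1843 ± 262 with GSH, 1263 ± 222 in knockout and 1056 ± 27.2 in wild type, and was called for GSH against knockout (0.55, adjusted p = 0.0014). Without knockout array 3 it was also called for knockout against wild type (0.36, adjusted p = 0.016). Rfx5, which binds the X box, averaged 576 ± 71.2, 519 ± 68.7 and 446 ± 74.9, with 0.15 for GSH against knockout (adjusted p = 0.38) and 0.23 for knockout against wild type (adjusted p = 0.20). Its call for GSH against wild type (0.38) was lost without wild-type array 3 or 5 (adjusted p = 0.063 and 0.13) or GSH array 2 or 4 (0.098 and 0.11). Creb1 was called in knockout against wild type (0.33, adjusted p = 0.0088), but not with the arrays centred on their medians (0.24, adjusted p = 0.12) or with no set term (adjusted p = 0.063). The call of Nfyc for GSH against knockout (-0.23, adjusted p = 0.035) was lost with the replicate block (adjusted p = 0.11) and without wild-type array 3, knockout array 2 or 4, or GSH array 2 or 4 (adjusted p = 0.057, 0.081, 0.16, 0.12 and 0.078).

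Of the genes that set how long class II stays at the surface, Marchf1, a ligase that marks class II and Cd86 for removal, averaged 689 ± 219 with GSH, 437 ± 179 in knockout and 236 ± 50.1 in wild type. It was called higher in both steps, at 0.69 for GSH against knockout and 0.84 for knockout against wild type (adjusted p = 9.5e-04 and 3.5e-04), and both calls were lost with no set term (adjusted p = 0.16 and 0.11). Cd83, which opposes Marchf1, gave 0.46 and 1.13 (adjusted p = 0.011 and 3.3e-05), the first of which was lost without GSH array 4 (0.40, adjusted p = 0.060). Marchf8, a related ligase, gave 0.05 and -0.14 and was called in neither.

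Of 9 co-stimulatory and co-inhibitory ligands that passed, 5 were called higher and 0 lower for GSH against knockout, 7 and 0 for GSH against wild type, and 5 and 1 for knockout against wild type. Cd274, the inhibitory ligand PD-L1, read 2249.0, 1960.4 and 2139.6 with GSH, 904.9, 980.8 and 986.9 in knockout and 419.7, 413.0 and 469.1 in wild type, a log2 change of 1.14 at each step (adjusted p = 8.8e-07 and 1.6e-06). Its groups did not overlap and stood in the order of those of Cd74. Icosl, the ligand of ICOS, gave 0.61 and 0.87 (adjusted p = 0.0028 and 3.8e-04). Icam1, an adhesion molecule that holds T cells to the presenting cell, had another order: 4167 ± 103 with GSH, 2039 ± 126 in knockout and 3399 ± 104 in wild type, with 1.03 for GSH against knockout and -0.74 for knockout against wild type (adjusted p = 1.0e-07 and 3.0e-06).

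MHC class I genes, which present peptides made in the cytosol, were called mainly against wild type. Of 16, 15 were called higher and 0 lower for knockout against wild type, 14 and 0 for GSH against wild type, and 4 and 0 for GSH against knockout. The 4 of 16 compare with 18.4% called higher among all probe sets. That count was 2 without knockout array 2, and between 3 and 5 without any other array. The immunoproteasome subunit Psmb8 averaged 2826 ± 166 with GSH, 2655 ± 338 in knockout and 1076 ± 46.5 in wild type, with 0.10 for GSH against knockout (adjusted p = 0.44) and 1.30 for knockout against wild type (adjusted p = 1.1e-06). Tap1, a subunit of the peptide transporter, gave -0.34 (adjusted p = 0.098) and 1.15 (adjusted p = 1.5e-04). The first passed the threshold with the replicate block in the 6 knockout arrays (adjusted p = 0.045), without wild-type array 5 (0.024), and when wild type was left out of the fit (0.034). Nlrc5, the class I counterpart of Ciita, averaged 446 ± 36.3, 293 ± 42.7 and 104 ± 28.9, with 1.53 for knockout against wild type (adjusted p = 2.8e-04). For GSH against knockout Nlrc5 gave 0.61 (adjusted p = 0.046). That call was lost with no set term (adjusted p = 0.095), no filter (0.081), median centring (0.077) or no intensity trend (0.061). It was also lost without wild-type array 3 (0.058), knockout array 2 or 3 (0.089 and 0.15), or GSH array 2, 3 or 4 (0.063, 0.085 and 0.20).

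Interferon-gamma, the cytokine best known for inducing Ciita, was not detected: Ifng averaged 7.80 ± 8.28 with GSH, 8.50 ± 4.53 in knockout and 17.0 ± 14.9 in wild type. Of 11 genes of its receptor, signalling and response that passed, 5 were called higher and 2 lower for GSH against knockout (3 and 2 with the replicate block, 3 and 2 without knockout array 4), 8 and 0 for GSH against wild type, and 6 and 1 for knockout against wild type. Irf8, a transcription factor of myeloid cells, gave 0.63 for GSH against knockout and 0.82 for knockout against wild type (adjusted p = 3.2e-04 and 7.3e-05). Cxcl10, an interferon-induced chemokine, averaged 1251 ± 119.7 with GSH, 3493 ± 313 in knockout and 1341 ± 124 in wild type, and Gbp2 averaged 1426 ± 122, 2755 ± 83.4 and 1294 ± 127. Both were called lower with GSH than in knockout (-1.48 and -0.95) and higher in knockout than in wild type (1.38 and 1.09), whereas Cxcl11 ran the other way (1.38 and -1.28).

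**Figure D4:**
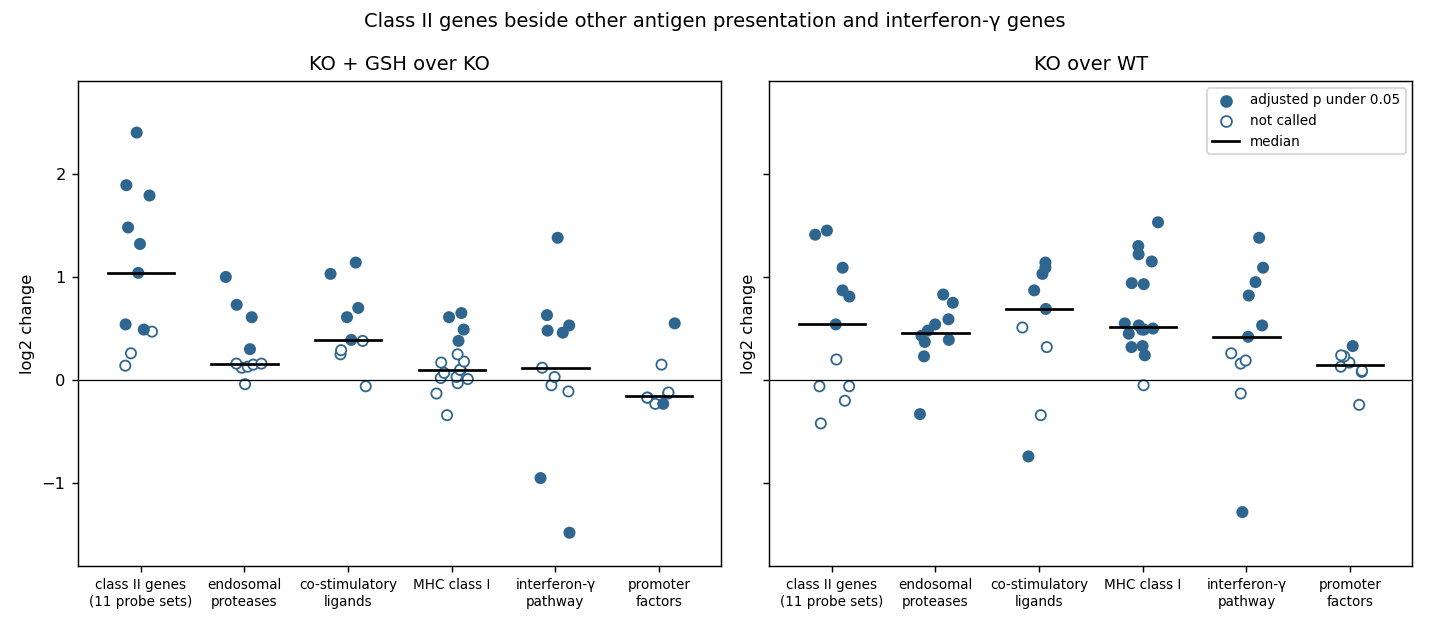
Log2 change (vertical axis) of the 11 class II member probe sets and of the genes of 5 other lists for knockout with GSH over knockout (left) and knockout over wild type (right), filled where adjusted p was under 0.05, with the median as a bar. The class II median counts several probe sets of H2-Aa, H2-Ab1 and Cd86, whereas the other lists hold 1 probe set a gene, so the 2 are not alike. On the left it is 1.04, beside the other lists' medians of -0.15 to 0.39. With only the brightest probe set of each gene, the left values are 1.89 (Cd74), 1.48 (H2-Aa), 1.04 (H2-Ab1), 0.54 (H2-Eb1, the middle one), 0.49 (Ctss), 0.47 (Cd86) and 0.26 (H2-DMa). On the right the class II median of 0.54 lies within the other lists' range of 0.15 to 0.69.

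The genes whose profile was most like each member were found as those with the smallest root mean square difference in log2 signal. Each gene was first centred on its own mean over the 9 arrays. For Cd74 they were Dcstamp (0.07), Arg2 (0.21) and Tgfbi (0.27). Dcstamp, a membrane protein needed for the fusion of osteoclasts and macrophages, averaged 1021 with GSH, 264 in knockout and 146 in wild type. For H2-Aa they were Arg2 (0.12), Tgfbi (0.15) and St8sia4 (0.17), and for H2-Ab1 Gsap (0.15), Ddhd1 (0.15) and Ttc9 (0.18). For H2-Eb1 they were Necap2 (0.05), Pwwp2b (0.06) and Trappc9 (0.08). The nearest to Ctss was Mroh1 (0.07), to H2-DMa Jazf1 (0.09) and to Cd86 Coro1a (0.18), a cytoskeletal protein of leukocytes. A mean profile was also taken, over Cd74, H2-Aa, H2-Ab1 and H2-Eb1 alone. Nearest to it were Cd84 (0.13), Myo1f (0.13), Hcar2 (0.14), Gsap (0.14), Fpr2 (0.15) and Csf1r (0.15), the receptor for the macrophage growth factor. These are descriptions over arrays that share groups and cultures, with no test.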

How the data were processed

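Expression was measured on Affymetrix Mouse 430 2.0 arrays, 9 in 3 groups. The authors deposited 1 intensity per probe set and array, on a linear scale. The mean intensity, trimmed by 2% at each end, was 499.6 to 500 on all arrays, which had thus been scaled alike. No source used here names the summarisation software.

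From 45101 probe sets, 64 controls were left out. The 2 values at 0 were set to 0.1 before log2 was taken. Probe sets with a mean log2 intensity at or above the median of all were kept (22519). The platform annotation gave a single symbol for 34945 probe sets (34741 of them matched in the RefSeq table), more than 1 for 932, and none for 9160.

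limma 3.58.1 (R 4.3.3) was fitted to the 9 arrays together, with group and set as terms and a trend on intensity. Residual degrees of freedom were 5 and prior ones 6.08. The fit was also run on simulated arrays with independent noise, no set effect and few changed probe sets. That run cannot vouch for the fit in these data, where arrays of a set resemble each other and many probe sets differ. What the set number stands for is not stated, and it was fitted because each set holds every group. Summaries used Python 3.11.15 and scipy 1.17.1.

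The members and lists were chosen with earlier results of these data known. The members were named whatever their values. From each pathway list, up to 6 genes with the smallest p in knockout against wild type could be named. Ifng, H2-Oa and the genes named from the marker lists were chosen after their values were seen.

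Knockout arrays with and without GSH share the numbers 2, 3 and 4. The numbers were taken to pair them, which the labels do not state. Deviations from group means correlated at 0.32, 0.29 and 0.67 within the same numbers. The crossed pairs in set 2 gave 0.39 and 0.24, so these correlations show no pairing by number beyond the set. The number of arrays limits the precision. Alternatives were the set term, the replicate block, the arrays fitted, the filter, the normalization, the floor, the trend, the call rule and leaving out each array.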

Additional observations from a re-analysis of the deposited data

How the results depend on the processing

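Of 647 recomputed changes of member probe sets, 627 stayed on their side of the threshold, 17 lost the call and 3 gained it. Of 2428 for the other named genes, 2325 stayed on their side, 89 lost the call and 14 gained it. In both, 0 changed direction where either fit made a call. A change of sign between fits that made no call was counted as staying. Counts moved as follows. For knockout against wild type, 6560 probe sets were called, and 2774 with no set term, 3253 with the replicate block in place of the set and 2290 by the design text's rule on pairwise folds (the fold rule). For GSH against knockout, 7964 were called, and 4574 with no set term and 3411 by the fold rule. For GSH against wild type, 10074 were called, and 6181 with no set term, 6586 with the replicate block and 4519 by the fold rule. A stricter filter at the 70th percentile left 1, 3 and 3 member probe sets called for knockout against wild type, GSH against knockout and GSH against wild type, since fewer were tested.

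Leaving out each array in turn gave 4500 to 6825, 6659 to 7847 and 8184 to 10452 calls in the same order, and 5 to 7, 8 to 9 and 10 to 11 member calls. For GSH against knockout, with the numbers taken as pairs, the replicate block gave 8 member calls, as without it, and 5824 calls in all (6888 in the 6 knockout arrays alone). For the contrasts with wild type, where the numbers do not pair the arrays, the block ended the calls of H2-DMa in knockout (0.47, adjusted p = 0.14) and of H2-Eb1 with GSH (0.25, adjusted p = 0.34). With the block, list counts for knockout against wild type fell to 5 higher and 0 lower of the endosomal proteases, 10 higher of the class I genes and 0 of the promoter factors, and for GSH against wild type to 5 higher of the interferon-gamma genes and 1 of the promoter factors. Within same-numbered knockout arrays, a comparison added after seeing the data, the within-array differences for GSH against knockout lay above 0 in 3 of 3 pairs (exact p = 0.25 each), except Ctss less the macrophage sum (2 of 3, exact p = 0.5). The fold rule was not met by H2-DMa in knockout against wild type, H2-Eb1 with GSH in either comparison, or Ctss in GSH against knockout. In set 2 alone, H2-DMa (0.50, adjusted p = 0.077) and H2-Eb1 (0.53 and 0.42, adjusted p = 0.057 and 0.10) were not called. Centring each array on its median, which lowers all log2 changes by 0.0891, 0.0598 and 0.149 in that order, ended H2-Eb1 with GSH against wild type (0.33, adjusted p = 0.090). The causes were not tested. Ciita and the dimmer probe sets of H2-Aa and H2-DMa had low signals, in part near or below the control level, which limits what can be seen of them.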
